A study of Mus musculus with 6 samples.

Results

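Leukaemia inhibitory factor (LIF) signals to mouse embryonic stem cells through a receptor of 2 chains, and 10 genes of that route were followed here in cells in which a Snail fusion protein was switched on. The set holds 4 receptor and kinase genes and 6 STAT3 target genes, out of 19057 genes that a probe of the array names. The receptor and kinase genes are Lifr and Il6st, which encode the ligand-binding chain and the shared chain gp130, the kinase gene Jak1 and the transcription factor gene Stat3. The targets are Socs3, Icam1, Pim1, Pim3, Bcl3 and Cish. All 18 probes annotated to these symbols were taken, and the KLF genes, of which several are also STAT3 targets, were left out.

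In this route LIF joins LIFR to gp130, the JAK kinases bound to the chains phosphorylate them, and STAT3 docks there, is phosphorylated and moves to the nucleus. There it switches on genes that help to keep the naive state, together with inhibitors such as SOCS3 that close the loop at the receptor. STAT3 is itself controlled largely by phosphorylation, so the RNA level of its gene is not a measure of its activity.

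The samples were mouse E14 embryonic stem cells that carried Snail-ER, the zinc finger repressor Snail joined to an estrogen receptor domain that 4-hydroxytamoxifen (4-OHT) brings to the nucleus. RNA was taken after 4-OHT for 0, 2, 4, 8, 12 or 24 h and each time had a single Illumina bead array, 6 in all, with serum and LIF in the medium throughout. Neither cells cultured alongside without 4-OHT nor cells lacking the fusion and given 4-OHT were analysed here, so hours in culture, 4-OHT and the fusion cannot be told apart. Separate cultures per time, and whether the line was 1 clone, are left unstated by the labels. The p-values measure only the scatter of the single arrays about a fitted line. That scatter may be technical, and a course that is not straight on the time scale used adds to it. As bulk RNA was measured, fewer cells of a type and less RNA per cell cannot be told apart.

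All values below are normalized signals, linear and background-subtracted, from the authors' value table. A probe counted as detected where its detection p-value, the share of negative control probes that were brighter, was under 0.01, or, for a probe without one, where its signal was at least that of the dimmest probe so detected on the same array. Background width differed between arrays. Its standard deviation was 16.1, 14.7, 8.72, 15.99, 4.72 and 4.73 intensity units in order of time, so that a dim probe could be detected at 4, 12 and 24 h and missed at 0, 2 and 8 h. The lowest detected normalized signal was 60.6, 71.1, 31.4, 62.0, 18.5 and 18.9 in the same order. All 8 embryonic stem cell markers examined were detected on all 6 arrays. Their summed signals were 42296, 35970, 37170, 28423, 28305 and 31283 in order of time, highest at 0 h like the members that fell. Of these markers Nanog, Zfp42 and Esrrb fell and Utf1 rose by the test given below. The Nanog call was lost without the 0 h array and the Utf1 call without the 0, 2, 12 or 24 h array. Among markers of other cells, 2 of 8 fibroblast feeder, 2 of 6 primitive endoderm, 2 of 6 trophectoderm and 0 of 3 haematopoietic genes were detected on any array. The feeder collagen genes Col1a1, Col1a2 and Col3a1, the endoderm genes Gata4 and Gata6 and the trophectoderm gene Cdx2 were not detected on any. Those detected were Thy1 and Dcn of the feeder list, Sox7 and Dab2 of the endoderm list, and Gata3 and Tfap2c of the trophectoderm list. The median fitted change was 0.39 for the 2 feeder genes and 0.23 for the 2 endoderm genes, and none of them passed. On all 6 arrays, 1 feeder and 1 trophectoderm gene were detected. Summed feeder signals were 177, 204, 218, 176, 150 and 135, endoderm signals lay between 82.7 and 143 and haematopoietic signals between 1.95 and 13.0. Summed trophectoderm signals were 502, 365, 319, 149, 134 and 232 in order of time, highest at 0 h like the stem cell sums and the members that fell. Most of that sum was Tfap2c, which fell by the same test (-1.72 ± 0.38, SE, log2), a call lost without the 0 or the 12 h array. Gata3, the other trophectoderm gene tested, had a positive fitted change and did not pass. The median of the pair was -0.33. The part of these markers in the results was not tested.

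The sequences searched were the letters to which STAT dimers bind in general, TTCNNNGAA and the E-box CAGGTG, to which Snail binds in general. Both were searched on both strands in the 12 promoter windows that RefSeq gives for the 10 genes on GRCm38.p6, each from 250 bases before a gene's start to 50 after it. TTCNNNGAA lay in 3 of the 12 windows, those of Socs3, Icam1 and Cish, and in 8.30% of the 32851 windows of all genes. CAGGTG lay in 2 of the 12, those of Icam1 and of the second start of Lifr, and in 20.2% of all windows. The windows of the 3 genes that fell with time (below) are shown for the 250 bases before the start, beside 100 bases around the start of Cish, the target with 2 matches to TTCNNNGAA. Capitals mark each match to either set of letters. The Il6st stretch (chr13:112463820-112464069, plus strand) holds neither. That of Socs3 (chr11:117969367-117969616, minus strand) holds TTCTTAGAA, which begins 154 bases before the start. That of Icam1 (chr9:21015690-21015939, plus strand) holds CACCTG, the E-box read on the other strand, from 204 bases before the start and TTCCCGGAA from 42 bases before it. In Cish (chr9:107296589-107296688, plus strand, 70 bases before to 30 after the start) TTCCTGGAA begins at base 1 of the transcript and TTCTTGGAA at base 12. A match of letters is a description and does not show that a factor binds there.
Il6st: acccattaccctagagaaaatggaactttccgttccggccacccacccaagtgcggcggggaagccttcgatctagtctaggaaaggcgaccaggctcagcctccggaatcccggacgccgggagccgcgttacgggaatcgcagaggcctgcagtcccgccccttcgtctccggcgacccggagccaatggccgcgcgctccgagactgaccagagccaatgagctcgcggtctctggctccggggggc
Socs3: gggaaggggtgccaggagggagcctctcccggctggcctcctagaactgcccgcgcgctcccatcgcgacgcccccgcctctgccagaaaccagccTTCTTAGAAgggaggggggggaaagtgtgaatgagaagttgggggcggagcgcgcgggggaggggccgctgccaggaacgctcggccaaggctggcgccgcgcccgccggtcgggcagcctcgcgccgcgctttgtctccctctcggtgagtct
Icam1: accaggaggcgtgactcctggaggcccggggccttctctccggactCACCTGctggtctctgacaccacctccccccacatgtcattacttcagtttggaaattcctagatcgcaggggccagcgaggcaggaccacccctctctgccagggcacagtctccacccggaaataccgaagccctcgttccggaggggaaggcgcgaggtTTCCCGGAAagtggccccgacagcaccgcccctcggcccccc
Cish: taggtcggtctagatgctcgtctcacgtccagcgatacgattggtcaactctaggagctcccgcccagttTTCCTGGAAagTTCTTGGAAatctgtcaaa

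Over the 24 h, 3 of the 10 genes fell and none rose. They were the receptor gene Il6st and the targets Icam1 and Socs3, whose signals at 24 h were 2.30-fold, 3.08-fold and 2.53-fold lower than at 0 h. Jak1, Lifr, Stat3, Pim1, Pim3, Bcl3 and Cish did not pass. Folds here are on the scale of normalized signal plus 16, which understates the change of dim probes. The test fitted log2(signal + 16) against log2(hours + 1) over the 6 arrays with limma, two-sided with Benjamini-Hochberg adjustment at 0.05, over all 17143 probes detected on at least 1 array. The fitted change is the fitted line's difference between 24 and 0 h, with its standard error (SE). In fits without the 0 h array it runs from 2 to 24 h, and without the 24 h array from 0 to 12 h, which are shorter spans. Of the 18 member probes, 13 were detected on at least 1 array and entered the test, and each gene had at least 1 of them. Of these 13, 3 fell (23.1%), against 5.42% of all probes tested, and 0 rose, against 5.95%. At an unadjusted p under 0.05, 5 of the 13 were lower and 0 higher, against 5017 of the 17143 probes past that threshold in either direction. Counted in either direction, the unadjusted share of the members stands nearer to that of all probes. The share of all probes that were lower at that threshold was not counted, so the falling counts alone cannot be compared. Probes that no array detected could not enter, so this share covers only the probes that did.

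**Figure D1:**
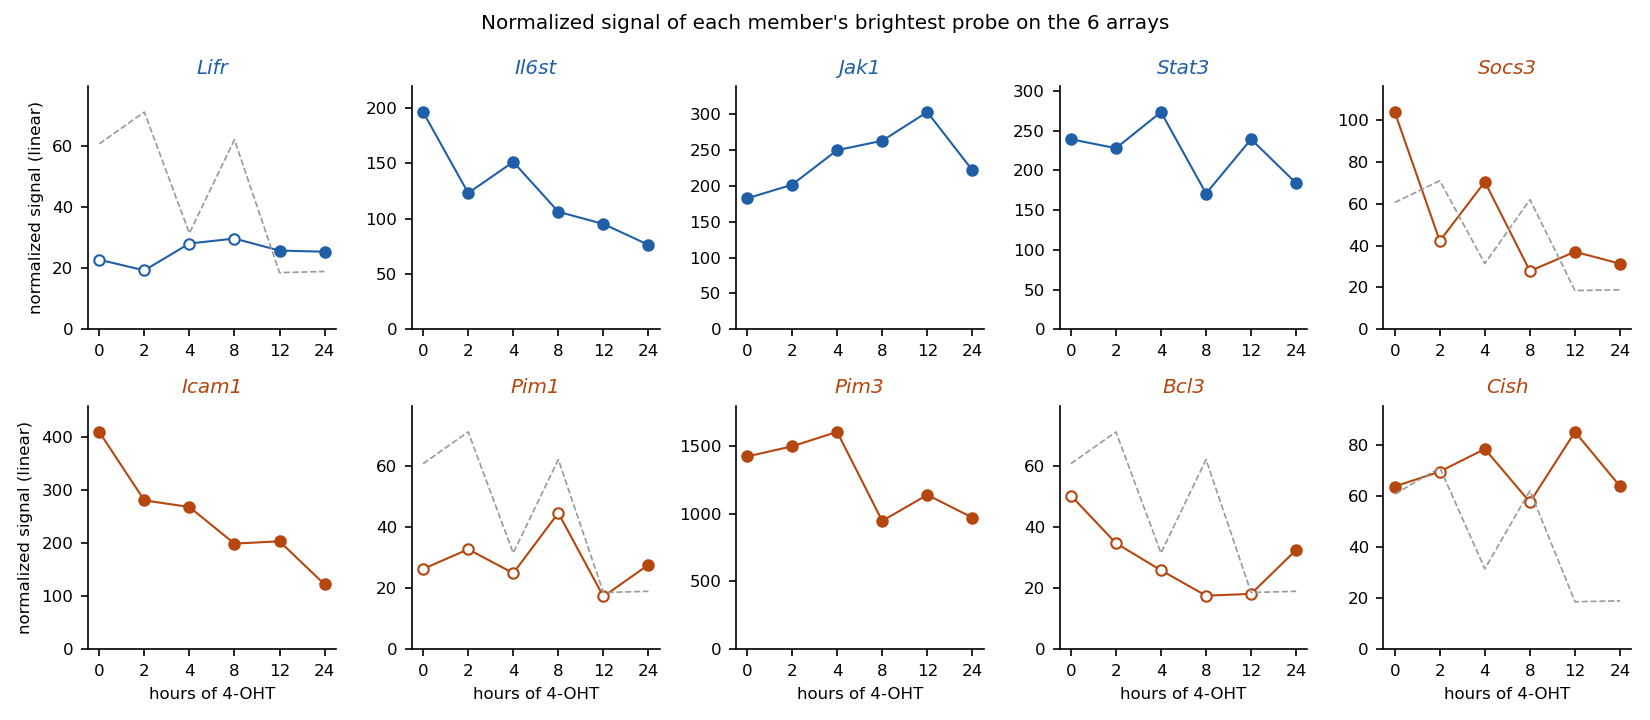
Normalized signal (linear, each panel from 0) of the brightest probe of each of the 10 genes against hours of 4-OHT, shown at equal steps, with receptor and kinase genes in blue and STAT3 targets in orange; filled points were detected, open ones were not, and the dashed line in panels that stay under 150 units is the lowest detected signal of each array. Il6st and Icam1 were detected throughout and had their highest signal at 0 h and their lowest at 24 h, while Lifr, Pim1 and Bcl3 lay under the dashed line on most arrays.

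Among the receptor and kinase genes, Il6st, whose product gp130 is the signalling chain shared by the receptors of the interleukin-6 family, had normalized signals of 196, 123, 151, 106, 95.1 and 76.3 at 0, 2, 4, 8, 12 and 24 h. It was detected on all 6 arrays, was highest at 0 h, and after 4 h each later array was lower than the one before. The line fitted for Il6st changed by -1.14 ± 0.22 (SE, log2; limma adjusted p = 0.011), with a 95% interval from -1.62 to -0.66. The scanner intensities before normalization were 312, 220, 241, 225, 182 and 163 in order of time, also highest at 0 h and lowest at 24 h. A second Il6st probe was not detected on any array, with signals between -6.67 and 3.96.

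Lifr, which encodes the chain that binds LIF together with gp130, was dim. Its brightest probe had signals of 22.8, 19.3, 28.1, 29.7, 25.7 and 25.4 and was detected only at 12 and 24 h. As its 0 h signal was below detection, no fold against 0 h was read. Its fitted change was 0.19 ± 0.28 (limma adjusted p = 0.70; 95% interval -0.44 to 0.81). The other probes of Lifr, both undetected throughout, had signals between 4.93 and 22.9. That interval holds changes of the receptor gene in either direction, and the miss does not show a constant level.

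Jak1 encodes the kinase that associates with gp130. Its bright probe had signals of 183, 202, 250, 263, 303 and 222 in order of time, detected on all 6 arrays. All 5 later signals lay above the 0 h signal, by 1.61-fold at 12 h and by 1.20-fold at 24 h. The fitted change of 0.47 ± 0.23 did not pass (limma adjusted p = 0.19; 95% interval -0.03 to 0.97). A dim Jak1 probe, detected at 12 and 24 h, did not pass either (0.53 ± 0.32; limma adjusted p = 0.29), and the other Jak1 probe, annotated to a different transcript record, was not detected. The value of the bright probe moved when single arrays were left out. It was 0.35 without the 12 h array (limma adjusted p = 0.39). Over 2 to 24 h, without the 0 h array, it was 0.19 (limma adjusted p = 0.66). Over 0 to 12 h, without the 24 h array, it was 0.68 (limma adjusted p = 0.050, just over the threshold). As the spans differ, the sizes of these values cannot be set against each other.

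Stat3, the transcription factor gene of the route, had 3 probes in the test and none passed. The brightest had signals of 239, 228, 273, 171, 239 and 184 (-0.34 ± 0.24; limma adjusted p = 0.38). At 12 h it was at its 0 h signal. Its fitted change was -0.17 without the 24 h array, over 0 to 12 h, and -0.86 with the background SD as a covariate, neither past the test. The next had 206, 164, 214, 139, 138 and 123, and the 3 later arrays all lay below the 3 earlier ones (-0.69 ± 0.23; limma adjusted p = 0.071; 95% interval -1.19 to -0.19). A dim probe, detected at 4, 12 and 24 h, had signals between 28.3 and 43.2 (-0.44 ± 0.25; limma adjusted p = 0.27). All 3 probes had a negative fitted change, and both bright ones were highest at 4 h.

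Among the targets, Icam1, which encodes a cell adhesion molecule of the immunoglobulin family, had the largest fitted change of the 10 genes. Its signals were 410, 280, 268, 199, 203 and 122 in order of time, detected on all 6 arrays. Compared with 0 h it was lower by 1.44-fold at 2 h, by 1.98-fold at 8 h and by 3.08-fold at 24 h. The 5 later arrays lay below the 0 h array, and the 24 h array lay below all others. The fitted change was -1.50 ± 0.20 (limma adjusted p = 0.0042; 95% interval -1.94 to -1.06). The scanner intensities of 532, 369, 354, 331, 286 and 205 were in the same order at every step but that from 8 to 12 h, where the normalized signal was 1.02-fold higher.

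Socs3 encodes the inhibitor that binds gp130 and shuts down JAK and STAT3, and is itself switched on by STAT3. Its signals were 104, 42.3, 70.5, 27.9, 37.1 and 31.3 in order of time. It was detected at 0, 4, 12 and 24 h and was below detection at 2 and 8 h, on arrays with a wide background. Among the arrays that detected it, it was 1.39-fold lower at 4 h, 2.26-fold at 12 h and 2.53-fold at 24 h, all against 0 h. At 2 h and 8 h only a bound can be given, at least 1.38-fold and at least 1.54-fold lower than at 0 h. The fitted change was -1.31 ± 0.35 (limma adjusted p = 0.036; 95% interval -2.08 to -0.55).

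Background width moved with these times, as the arrays of 12 and 24 h had the narrowest backgrounds, and the log2 background SD and log2(hours + 1) had a correlation of -0.76 over the 6 arrays. Within the 3 arrays of narrower background, at 4, 12 and 24 h, Icam1 was 2.06-fold lower at 24 h than at 4 h, Socs3 1.83-fold and Il6st 1.81-fold. With the background SD as a covariate, all 3 fitted changes stayed negative, at -1.64 for Icam1, -2.11 for Socs3 and -1.26 for Il6st. None then passed (limma adjusted p = 0.058, 0.064 and 0.11), in a fit that called 40 rising and 62 falling probes in all.

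The 4 other targets did not pass. Pim3, a serine and threonine kinase gene, was detected on all 6 arrays, with signals of 1424, 1500, 1606, 948, 1140 and 973. The arrays of 8, 12 and 24 h all lay below those of 0, 2 and 4 h, by 1.46-fold at 24 h against 0 h. Its fitted change was -0.67 ± 0.23 (limma adjusted p = 0.082; 95% interval -1.17 to -0.16), and -1.04 with the background SD as a covariate (limma adjusted p = 0.16). Pim1, the related kinase gene, was detected only at 24 h by 1 of its 2 probes, with signals between 17.2 and 44.5 (-0.06 ± 0.35; limma adjusted p = 0.93). The highest Pim1 signal, at 8 h, was below detection on that array.

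Bcl3, which encodes a partner of NF-kappa-B p50 and p52, had signals of 50.2, 34.7, 25.8, 17.5, 18.1 and 32.4. Only the 24 h signal was detected, so the lower signals at 2, 4, 8 and 12 h were set against a 0 h signal that was itself not detected. Its fitted change was -0.71 ± 0.35 (limma adjusted p = 0.20; 95% interval -1.47 to 0.06), and without the 0 h array, over 2 to 24 h, it was -0.16. Cish, an inhibitor of the same family as Socs3 best known as a STAT5 target, had signals of 63.7, 69.5, 78.4, 57.5, 85.0 and 63.7 and was detected at 0, 4, 12 and 24 h. The 24 h signal of Cish was at its 0 h signal, and its fitted change was 0.05 ± 0.25 (limma adjusted p = 0.91; 95% interval -0.49 to 0.60).

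**Figure D2:**
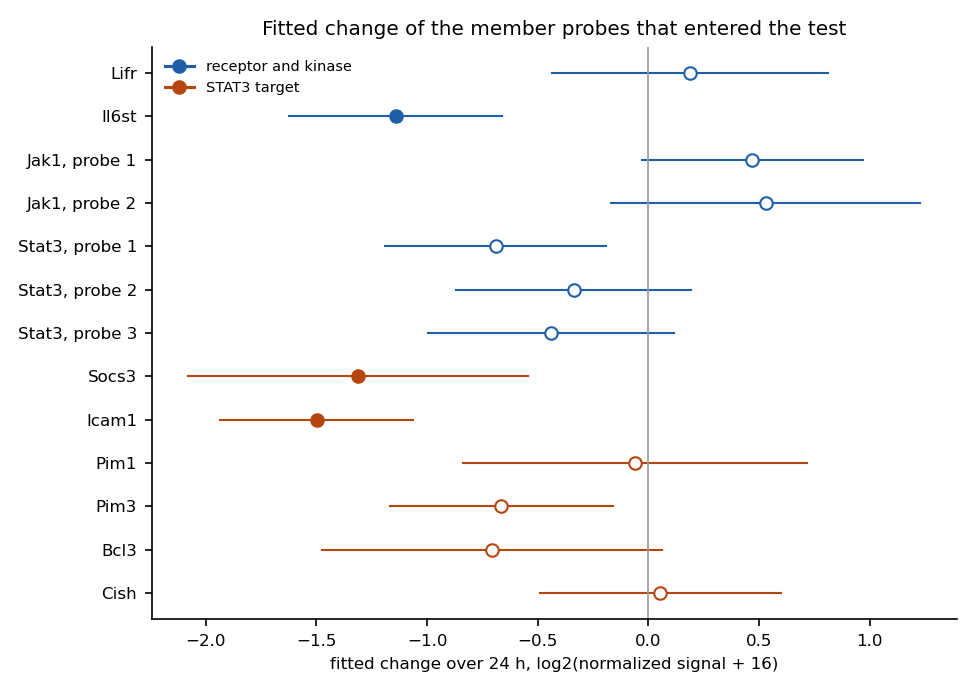
Fitted change over 24 h (log2 of normalized signal + 16) of the 13 member probes in the test, with 95% intervals; filled points passed at a limma adjusted p of 0.05. Il6st, Socs3 and Icam1 lie between -1.14 and -1.50 with intervals below 0, and probes of Jak1 lie at 0.47 and 0.53 with intervals that include 0. The intervals of Pim3, at -0.67, and of the Stat3 probe at -0.69 also lie below 0, although neither passed.

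Set beside each other by their brightest probes, the 4 receptor and kinase genes split evenly, with 2 negative and 2 positive fitted changes and a median of -0.07. Of the 6 targets, 5 were negative and 1 positive, with a median of -0.69. Over all 9432 genes tested the median was 0.06, with 4159 negative and 5273 positive. By time, the median log2 difference of the targets from 0 h was -0.16, -0.26, -0.78, -0.65 and -0.50 at 2, 4, 8, 12 and 24 h. That of the receptor and kinase genes was -0.10, 0.18, -0.11, 0.05 and -0.13, and that of all genes lay between 0.01 and 0.08. Each median of the targets, fitted or by time, draws on Bcl3 or Pim1, and each of the receptor and kinase genes on Lifr. None of these was detected at 0 h, so the medians rest in part on signals below detection. At 2 and 8 h, Icam1 and Pim3 were the only targets detected on both that array and the 0 h array. These medians are descriptions of few genes and the difference between the groups was not tested.

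At least 2-fold differences from 0 h were counted without a test, among probes that either array of the pair detected. At 24 h, 3 of 13 member probes were at least 2-fold lower, those of Il6st, Socs3 and Icam1, against 3.76% of all 16018 probes compared, and 0 were higher, against 4.41%. Socs3 was the 1 member past 2-fold at each of 2, 8 and 12 h, of 8, 8 and 11 member probes compared, against 1.05%, 4.46% and 3.91% of all probes lower by as much. No member was 2-fold higher at those times, against 0.523%, 2.36% and 4.3% of all probes. At 2 and 8 h it was below detection, and its bounds given above are under 2-fold. At 4 h, 0 of 9 member probes were past 2-fold in either direction, against 1.32% of all probes lower and 0.272% higher.

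Among the fits with an array left out, calls were lost most often without the 0 h or the 24 h array. Those fits run over shorter spans, so the sizes of their changes cannot be set against those of the reported fit. Without the 0 h array the fitted change of Icam1 was -1.07 (limma adjusted p = 0.029), that of Il6st -0.73 (limma adjusted p = 0.10) and that of Socs3 -0.55 (limma adjusted p = 0.38), so that only Icam1 passed. Without the 24 h array Icam1 passed at -1.002 (limma adjusted p = 0.027), and Il6st at -0.86 (limma adjusted p = 0.055) and Socs3 at -1.22 (limma adjusted p = 0.080) did not. Without the 12 h array Socs3 did not pass, at a fitted change about as large, -1.34 (limma adjusted p = 0.085). Against untransformed hours Icam1 passed at -1.41 (limma adjusted p = 0.031), and Il6st at -1.03 (limma adjusted p = 0.072) and Socs3 at -1.004 (limma adjusted p = 0.20) did not. By rank of the time Icam1 and Il6st passed and Socs3 did not, at -1.16 (limma adjusted p = 0.052).

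**Figure D3:**
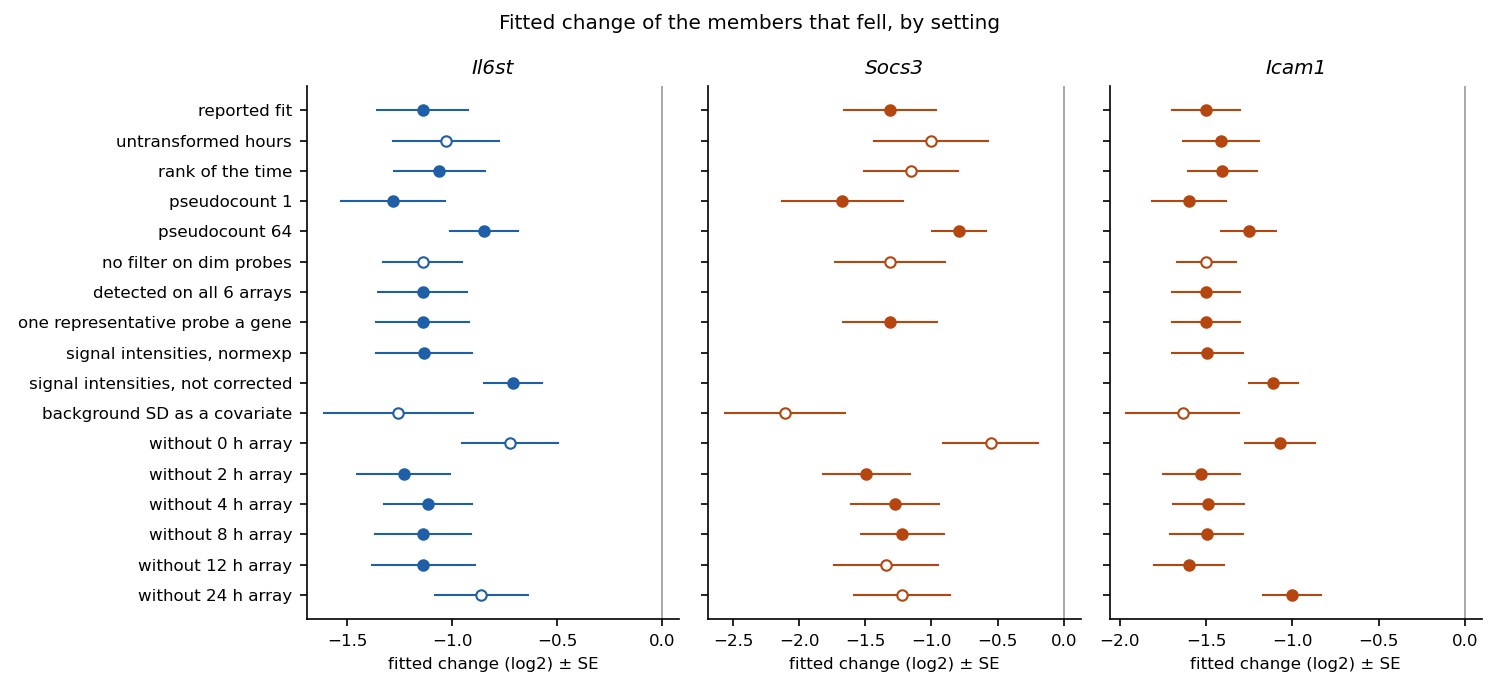
Fitted change (log2) ± SE of Il6st, Socs3 and Icam1 in the reported fit and under each alternative; filled points passed at a limma adjusted p of 0.05, and Socs3, outside the table of scanner intensities and not detected on every array, has no value in 3 settings. All points lie below 0, and the Socs3 value nearest to 0 is -0.55, without the 0 h array.

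Other genes of the route came from 4 lists with 66 genes, of which 62 had a probe and 44 were detected on at least 1 array. Of these 44, 1 rose and 3 fell, against 6.49% of all genes rising and 6.22% falling, each gene taken by its brightest probe. Of 12 ligand and receptor genes of the interleukin-6 family, 10 were not detected on any array. These were the ligand genes Lif, Il6, Il11, Osm, Cntf, Clcf1 and Il27 and the receptor genes Il6ra, Cntfr and Osmr. The cardiotrophin gene Ctf1, the brighter of the 2 that were tested, had signals of 31.8, 49.6, 58.4, 66.6, 75.9 and 61.6, was detected from 4 h on and did not pass (fitted change 0.81 ± 0.25; limma adjusted p = 0.060).

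Of 7 other JAK and STAT genes tested, 0 rose and 0 fell, with a median fitted change of -0.31. The largest of these changes was that of Stat5a, at -1.29 ± 0.41 (limma adjusted p = 0.062), which was detected only at 4 h. Of 17 inhibitors and adaptors tested, Socs5, another SOCS family inhibitor, rose and 0 fell, with a median of 0.02. Socs5 was dim, at 1.57, 1.07, 10.6, 12.2, 24.6 and 23.4 in order of time, and reached detection at 12 and 24 h alone, when the background was narrowest (1.40 ± 0.38; limma adjusted p = 0.038). That call was lost without any one of the arrays other than that of 8 h.

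Of 18 other STAT3 targets tested, 3 fell and 0 rose, with a median of 0.08. Tfcp2l1, a transcription factor of the naive state that LIF induces through STAT3, had signals of 1623, 1195, 1076, 302, 276 and 296, a step between 4 and 8 h (-2.95 ± 0.44; limma adjusted p = 0.0046). Kdm3a, a histone H3 lysine demethylase gene, had 1597, 1508, 1274, 706, 791 and 845 (-1.21 ± 0.26; limma adjusted p = 0.016), and both other probes of it that were tested fell as well. Vegfa, an angiogenic growth factor gene, had 46.1, 42.3, 40.7, 8.64, 23.0 and 10.2 and was detected only at 4 and 12 h (-1.37 ± 0.40; limma adjusted p = 0.048). The Kdm3a call of the brightest probe was lost without the 0 or the 12 h array, and that of Vegfa without any one of the arrays other than that of 8 h. Pim2, the remaining PIM kinase gene, did not pass by its brightest probe (1.20 ± 0.44; limma adjusted p = 0.096), whereas its other probe rose, with signals of 25.0, 48.5, 23.2, 145, 95.02 and 107 (1.87 ± 0.51; limma adjusted p = 0.039). Ctf1, Stat5a and Pim2 are named although they lie outside the naming rule and were chosen after their values were seen. The 3 PIM genes had fitted changes of -0.06 for Pim1, 1.20 for Pim2 and -0.67 for Pim3 by their brightest probes, none past the test.

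**Figure D4:**
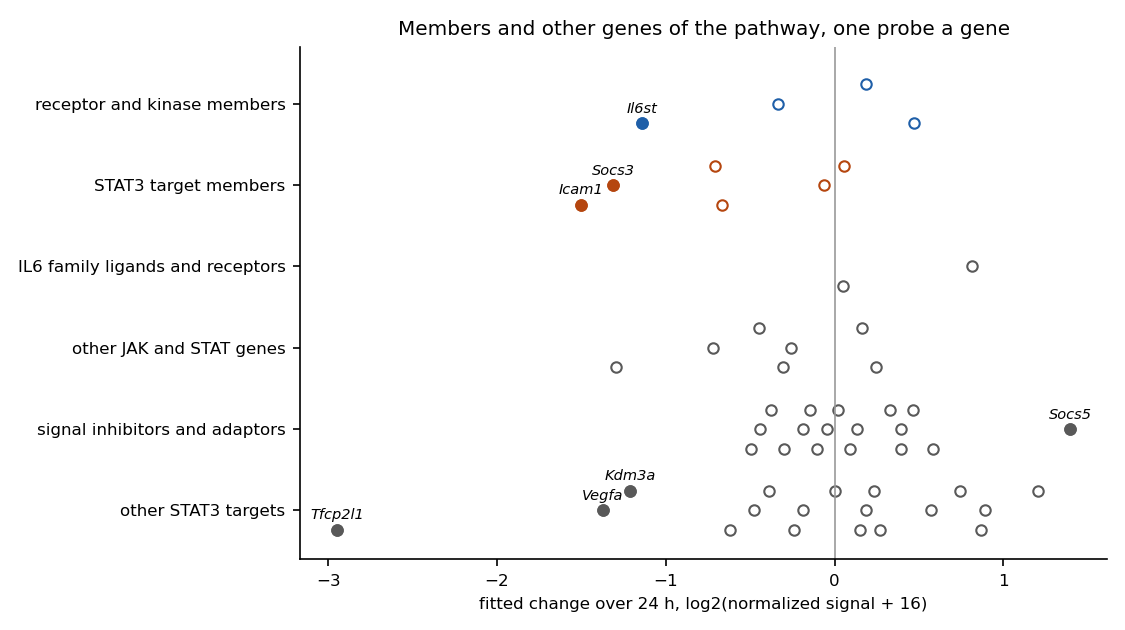
Fitted change over 24 h (log2 of normalized signal + 16), 1 probe a gene, of the receptor and kinase genes (blue), the STAT3 targets of the set (orange) and 4 further lists of the route (grey); filled, named points passed at a limma adjusted p of 0.05. Named points lie below 0 except Socs5 at 1.40, and Tfcp2l1 at -2.95 lies farthest from 0.

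Icam1, Il6st and Socs3 were the members with a range of at least 1 log2 unit over the arrays and detection on at least 3. For each, the 3 genes with the most similar course were taken by Pearson's r over the 6 arrays, among genes detected on all 6 that ranged as widely, 422 or 423 in number. As these are the highest of that many values over 6 arrays that share one time order, they are descriptions only. Most like Icam1 were Kndc1 (r = 0.984), the elongation factor gene Ell3 (0.983) and D930048N14Rik (0.981). Most like Il6st were the amyloid precursor-like gene Aplp1 (0.983), the cell cycle transcription factor gene E2f2 (0.976) and the transferrin receptor gene Tfrc (0.975). Most like Socs3 were Plekhf2 (0.967), Camta1 (0.953) and again Tfrc (0.945), which had signals of 2804, 1677, 1953, 1295, 1453 and 1041. The correlations with Socs3 include its signals at 2 and 8 h, which were below detection. In Tfrc, as in Il6st, the 2 h signal lay below the 4 h signal and the 0 h signal was the highest.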

How the data were processed

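RNA was hybridised to 6 Illumina bead arrays, assigned to times by the sample titles. Per the file headers, the authors deposited probe intensity on a linear scale with a detection p-value (32765 probes as held here), and normalized intensity for 45281 probes in the value table. GenomeStudio is the software in the submitters' processing notes, and how it was set is not given in the sources used here. Judged by its values, the deposited normalized intensity is linear with background removed and quantile normalized: every array spans -17.66 to 32363 and array medians lie between 4.71 and 4.77. Genes were not centred, and probe ranks equalled those of the intensity table (Spearman correlation 1). The value table was used because it alone covers all members: Stat3, Socs3, Pim1 and Pim3 lie outside the intensity table as held here.

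Negative values were set to 0 and 16 was added before log2. Symbols came from the platform annotation and were updated through Entrez identifiers to RefSeq, GRCm38.p6: 34885 probes had 1 symbol, 18 several and 10378 none, and 34807 matched. Trends were fitted with limma 3.58.1 (R 4.3.3), lmFit and eBayes with an intensity trend, leaving 4 residual degrees of freedom, on every probe detected on at least 1 array. The fit was tested on simulated data with independent noise for each probe and array. These data held no effect of background width, so that test could not check the fit against it. All 10 members are named with all probes, as are genes of the other lists past the test, and the most similar genes were chosen by correlation. Members, lists and tests were chosen with earlier results of these data known. Alternatives were other time scales, pseudocounts of 1 and 64, other filters, 1 probe a gene, the intensity table with normexp or no background correction, the background SD as a covariate, and each array left out. A few listed genes are not reported here. Only 6 arrays limit the precision.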

Additional observations from a re-analysis of the deposited data

How the results depend on the processing

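Of 145 alternative fits over the 10 genes, 125 kept direction and side of the threshold, 14 ended a call (of Il6st, Socs3 or Icam1) and 6 changed the sign of Pim1 or Cish, which had no call. No member rose in any fit. The member probes that fell numbered 3, and 1 against untransformed hours, 0 with no filter on dim probes and 0 with the background SD as a covariate, where 5 of 18 and 6 of 13 were lower at an unadjusted p under 0.05 in limma. With the covariate 3050 of 17143 probes passed that threshold in either direction. By rank of the time 2 fell, and of the 6 member probes detected on all 6 arrays 2 fell. Leaving out 1 array in turn gave 1 to 3. With no filter 45281 probes entered and limma called 0 in all, with 6371 at an unadjusted p under 0.05. Over all probes, 1020 rose and 930 fell; the counts were 75 and 36 against untransformed hours, 544 and 607 among probes detected on all 6 arrays, 589 and 584 with 1 probe a gene, 40 and 62 with the background covariate, and 307 to 968 and 331 to 1029 with 1 array left out. Of the other pathway genes, 1 rose and 3 fell; against untransformed hours, with no filter and with the background covariate 0 rose and 0 fell, by rank of the time 2 rose, among probes detected on all 6 arrays 0 rose, and with 1 array left out 0 to 1 rose and 1 to 3 fell. At 24 h, 3 member probes were at least 2-fold lower and 0 higher than at 0 h; with a pseudocount of 1, 1 was higher, and with 64, 1 was lower. With the raw intensities quantile normalized but not background-corrected, 1 of 7 probes was lower, against 2 of those 7 in the background-subtracted signals. The sign of Pim1 turned with the background covariate (0.86) and without the 12 h array, with a range of -0.20 to 0.15 over left-out arrays, and that of Cish against untransformed hours (-0.024), with the covariate (-0.36) and without the 0 or the 12 h array, with a range of -0.073 to 0.17. The causes were not tested. No paired analysis was possible because each time has 1 array. Signal over background limits Lifr, Pim1 and Bcl3, which were detected on 2, 1 and 1 of 6 arrays.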
